A study of Mus musculus with 6 samples.

Results

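The cap'n'collar transcription factors, their repressor and inhibitor, their small Maf partners and 3 of their best known target genes were followed in the stria vascularis of Errb mutant mice and wild-type mice. The group held 10 of the 18193 genes with a probe set of a single symbol, namely Nfe2l1, Nfe2l2, Nfe2l3, Keap1, Bach1, Mafg, Mafk, Nqo1, Hmox1 and Gclm. They were measured by 17 of 45037 probe sets, which are sets of short oligonucleotides that together give 1 value for a transcript on an Affymetrix array. Every probe set annotated with exactly 1 gene symbol, that symbol being a member, was taken, and all 17 were kept without a filter on level. The members were chosen by family and pathway around Nfe2l3, whose difference between the genotypes in these same arrays was known when the group was drawn up. The differences below are therefore descriptions and none of them is offered as a test.

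The stria vascularis is the secretory epithelium of the cochlear lateral wall, and Errb (Nr3b2, listed as Esrrb on the array) is the gene of estrogen-related receptor beta, a nuclear receptor with no known natural ligand. The Errb mutant group had 3 RNA pools and the wild-type group had 3, each pool from 10 mice and each on 1 array, with replicates numbered 1 to 3 in each genotype. The mutation was made by a conditional knock-out strategy; the sources used here do not name the Cre driver, the deleted part of the gene, the strain or the sex of the mice. The design text names pooled inner ears and the sample labels name stria vascularis. An age of postnatal day 3 to 5 is stated only for wild-type replicate 1.

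Cap'n'collar proteins are basic leucine zipper factors that bind DNA as dimers with small Maf proteins, at sites known as antioxidant or electrophile response elements. Keap1 holds Nfe2l2 (NRF2) in the cytoplasm and hands it to a Cul3 ubiquitin ligase until oxidants or electrophiles modify Keap1, and Bach1 occupies the same DNA sites as a repressor that heme releases. Nfe2l1 (NRF1) and Nfe2l3 (NRF3) are instead anchored in the endoplasmic reticulum membrane before they are processed, and Nfe2l1 is known for raising proteasome genes.

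Values are log2 expression values, on which a difference of 1 is a 2-fold change, and each difference is mutant minus wild type, as the mean ± SD of the 3 pairs of same-numbered pools. Array medians ran from 6.07 to 6.95 and differed more between pairs than within them, so levels are read within a pair. The Gapdh control probe sets give a sign of RNA degradation. Their 3' value minus their 5' value in pair 1 was 2.57 in the mutant and 2.28 in wild type, against 0.16 and 0.21 in pair 2 and 0.51 and -0.04 in pair 3. Markers of the 3 strial cell layers were measured in both genotypes but were mostly lower in the mutant. Kcne1 of marginal cells ran from 4.70 to 5.95 in the mutant and from 9.16 to 10.03 in wild type. Dct, a melanin synthesis gene of intermediate cells, ran from 11.26 to 11.94 in the mutant and from 11.86 to 12.68 in wild type, and Gjb6, a connexin gene of basal cells, from 10.66 to 11.80 in the mutant and from 11.97 to 12.91 in wild type. Pair 1 also stood apart in markers from outside the stria: the 4 neuron markers had a median difference of 3.59 in pair 1, against 0.58 and 0.33 in pairs 2 and 3, and the bone gene Ibsp differed by 3.85, against 0.16 and -0.07. The best expressed probe set of Esrrb itself read 9.76, 10.28 and 9.98 in the mutant, against 9.68, 10.60 and 9.96 in wild type; its place relative to the deleted part is unknown here, so it does not check the labels. Precision is limited by there being 3 arrays a genotype. No source says whether the pools came from separate litters or days, so p-values speak only of the spread among these pools.

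Nfe2l3 had the largest difference of the members, and it was lower in the mutant. Its best expressed probe set (1417520_at, gene on chromosome 6) read 6.31, 6.26 and 5.51 in mutant replicates 1 to 3, against 8.38, 8.02 and 6.94 in wild-type replicates 1 to 3. All mutant pools lay below all wild-type pools. The mean was 6.02 ± 0.45 in the mutant and 7.78 ± 0.75 in wild type (SD, n = 3 each), and the differences of -2.07, -1.76 and -1.43 in pairs 1 to 3 averaged -1.76 ± 0.32, a level 3.38-fold lower in the mutant. Of all probe sets on the array, 13 had a lower mean difference than this one.

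The other probe sets assigned to Nfe2l3 gave smaller differences. Probe set 1453614_a_at read 5.27, 5.75 and 5.06 in the mutant, against 5.61, 6.08 and 5.89 in wild type. It was lower in the mutant in every pair, by -0.50 ± 0.29 on average, and the genotypes overlapped. Probe set 1454240_at read 5.16, 5.98 and 4.77 in the mutant, against 5.16, 5.90 and 4.95 in wild type, a difference of -0.03 ± 0.13 with exactly equal values in pair 1. These probe sets lay between the 27.5 and 40.8 percentile and between the 22.9 and 31.9 percentile of all probe sets on their arrays, whereas 1417520_at ran from the 34.96 to the 85.21 percentile. Signal over background is not given for these arrays, and which part of the transcript each probe set reads was not analysed here.

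Relative to the median of its array, the best expressed Nfe2l3 probe set stood at 0.23, -0.68 and -0.88 in the mutant and at 2.31, 1.07 and 0.52 in wild type. In both genotypes this value was highest in pair 1 and lowest in pair 3. Pair 1 also carried the sign of RNA degradation, so the order of the pairs is not read as a difference in Nfe2l3 level. The mutant pool was lower than its wild-type partner in each pair.

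**Figure D1:**
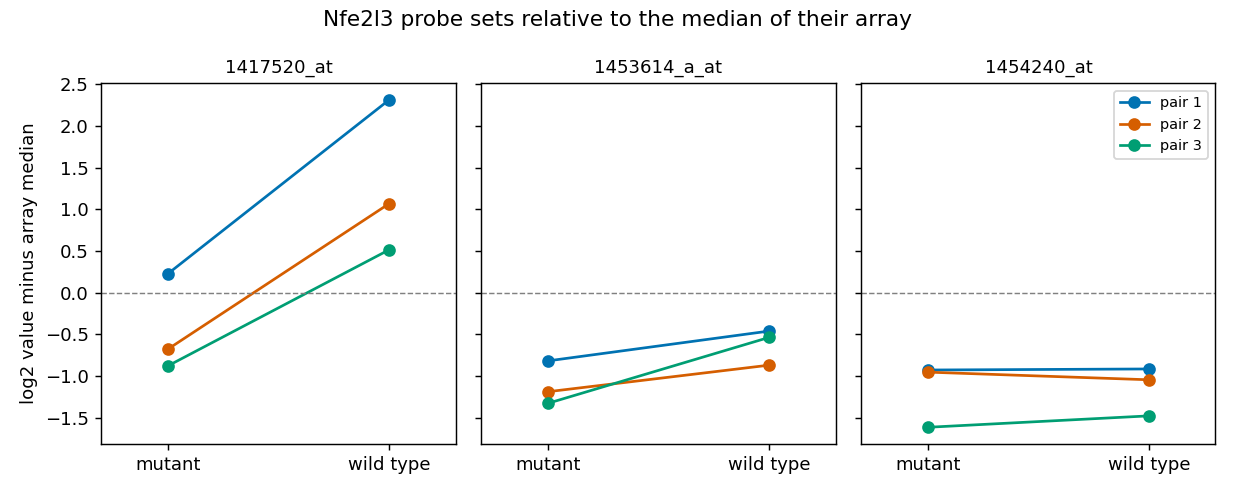
The log2 value minus the median of the same array is plotted for the 3 probe sets of Nfe2l3 in mutant (left) and wild-type (right) pools, with a line joining each same-numbered pair and a dashed line at the array median. In probe set 1417520_at the mutant end of every line is the lower one, with mutant points at -0.88 to 0.23 and wild-type points at 0.52 to 2.31, while 1454240_at is nearly level.

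Differences over the whole array were tested with limma, a linear model with a moderated variance, with the replicate number as a block and Benjamini-Hochberg adjustment over all 45037 probe sets at a threshold of 0.05. Of the 17 member probe sets 1 passed, the best expressed of Nfe2l3, where 0.0933% of all probe sets passed (42 probe sets, 5 higher and 37 lower in the mutant). Because Nfe2l3 was picked from this contrast, nothing is read from that count. Without the block 0 of the 17 passed in limma, against 0.00666% of all probe sets. At an unadjusted limma p under 0.05 the fit with the block gave 3 of the 17, against 7.18% of all probe sets. Without the block it gave 1 of the 17, against 94 of all 45037 probe sets. With any pair left out, 1 residual degree of freedom remained and no member passed; the Nfe2l3 difference was then -1.60 without pair 1, -1.75 without pair 2 and -1.92 without pair 3. The call was also lost after quantile normalization across all arrays, at a difference of -1.72.

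Markers of all 3 strial cell layers were mostly lower in the mutant alongside Nfe2l3, those of the potassium-secreting marginal cells by the most. All 8 listed marginal cell markers, among them the mutated gene Esrrb (-0.07 ± 0.21), had differences below 0, with a median of -1.31. Of all genes 48.7% were below 0. In the paired limma fit 4 of the 8 passed, all lower. The summed level of the 8 on the log2 scale ran from 11.84 to 12.77 in the mutant and from 13.16 to 14.08 in wild type. Kcne1, the accessory subunit of the apical potassium channel, differed by -4.32 ± 0.30, and its pore-forming partner Kcnq1 by -1.67 ± 0.17 (limma adjusted p = 0.00373 and 0.0193). Without the block Kcne1 alone of the 8 passed (limma adjusted p = 0.0071), and that of Kcnq1 was 1.

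Of the 8 intermediate cell and melanocyte markers 6 were below 0, with a list median of -0.69 and pair medians of -0.53, -0.88 and -0.69. The other 2, Sox10 (0.09 ± 0.27) and Tyrp1 (0.04 ± 0.20), were above 0. Summed levels of the 8 ran from 12.34 to 12.98 in the mutant and from 12.82 to 13.70 in wild type. None of the 8 passed in the paired limma fit, and 6 had an unadjusted p under 0.05. The tyrosinase gene Tyr differed by -1.13 ± 0.23 (limma adjusted p = 0.0701). Of the 4 basal cell markers 3 were below 0, with a list median of -0.55 and pair medians of -0.76, -0.59 and -0.30. The basal cell marker above 0 was Tjp1, at 0.04 ± 0.10. Summed levels of the 4 ran from 12.91 to 14.06 in the mutant and from 13.69 to 14.71 in wild type. Gjb6 passed in the paired fit, at -1.27 ± 0.14 (limma adjusted p = 0.0304, and 1 without the block).

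Markers of other tissue gave no call in the paired limma fit. The 4 neuron markers were all above 0, with a median of 1.48 that came mostly from pair 1, and 2 had an unadjusted p under 0.05. Their summed level ran from 6.87 to 10.16 in the mutant and from 6.48 to 7.02 in wild type. The 3 cartilage and bone markers were above 0, with a median of 0.14 and 0 at an unadjusted p under 0.05. The 6 endothelial markers were below 0, with a median of -0.16 and 2 at an unadjusted p under 0.05, and the 4 fibrocyte markers had a median of -0.01 and 1 such p. The part of any of these cell types in the Nfe2l3 difference was not tested. In pooled tissue fewer cells of a type and less RNA per cell cannot be told apart.

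The 5 genes whose pair differences lay nearest to those of Nfe2l3, by root mean square distance over the 3 pairs among 18192 other genes, were Rnf152 (distance 0.16), Kcnq1 (0.17), Tmem45b (0.29), Rspo3 (0.29) and F3 (0.30). The median distance of all genes was 1.78. Most genes differed little, so that median mainly restates the size of the Nfe2l3 differences. Genes lowered by a like amount are near by construction. Rnf152, a ubiquitin ligase gene, differed by -2.31, -1.70 and -1.59 in pairs 1 to 3. F3, the tissue factor gene, differed by -1.73, -1.43 and -1.65. Likeness over 3 pairs is a description of these arrays.

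The Nfe2l3 promoter is printed because this gene carries the difference and Errb encodes a DNA-binding receptor. The 250 bases before its RefSeq start site lie at chr6:51432419-51432668 (GRCm38.p6, plus strand), with the nuclear receptor half-site AGGTCA in capitals.
Nfe2l3: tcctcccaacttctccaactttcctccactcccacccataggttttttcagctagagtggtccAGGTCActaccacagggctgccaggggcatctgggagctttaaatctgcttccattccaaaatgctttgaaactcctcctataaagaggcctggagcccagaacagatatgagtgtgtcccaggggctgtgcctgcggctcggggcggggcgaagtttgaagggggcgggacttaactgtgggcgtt

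Both strands of the window from 250 bases before to 50 after the start were searched. The estrogen-related receptor half-site AAGGTCA and its extended form TCAAGGTCA, which contain AGGTCA, were found in 0 of 13 member windows, and in 4.72% and 0.423% of all 32851 promoter windows. The shorter AGGTCA, added to the search after the Nfe2l3 sequence had been read, occurred once in Nfe2l3, 187 bases before the start. It is held by 16.3% of all windows, and by 4 of the 13 member windows, of which 3 are overlapping windows of Nfe2l1. A match is only a match of letters and shows no binding.

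The 13 windows covered 9 of the 10 members. The core of the antioxidant response element, TGACNNNGC, was found in 4 of the 13, against 12.4% of all windows. Nfe2l1 has 5 of the 13 windows, none with the core, so by gene it was found in 4 of 9. The members were chosen by family and pathway, with known targets among them, so nothing is read from this share. The 4 matches are shown with 10 bases on either side, read so that the core runs 5' to 3', with the core in capitals, because factors of this family are known to bind such sites. They lie in GRCm38.p6 at chr2:75704885-75704913 (minus strand), chr11:120633751-120633779 (plus strand), chr5:139791513-139791541 (minus strand) and chr3:122245413-122245441 (minus strand). The core letters TGAC can overlap a half-site AGGTCA read on the other strand.
Nfe2l2: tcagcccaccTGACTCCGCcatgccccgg
Mafg: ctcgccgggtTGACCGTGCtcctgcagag
Mafk: tccccagtacTGACACCGCttccgggatc
Gclm: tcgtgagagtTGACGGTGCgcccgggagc

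The core base farthest from the start lay 240, 222, 13 and 134 bases before it in Nfe2l2, Mafg, Mafk and Gclm. In Nfe2l2 that is the first base of the core as printed, and in the others the last. None was found in the Nfe2l3, Nfe2l1, Keap1, Bach1 or Nqo1 windows, which says only that these letters are not in those windows. Mean differences for the best expressed probe sets of the 4 genes with a core ran from -0.13 to 0.11.

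The other cap'n'collar factors had mean differences near 0. Nfe2l1 (1416331_a_at, chromosome 11) read 8.45, 9.87 and 9.84 in the mutant, against 8.65, 9.95 and 9.44 in wild type. The pools of pair 1 were the lowest in both genotypes and the genotypes overlapped, with a difference of 0.04 ± 0.32 that was below 0 in 2 pairs and 0.40 in pair 3.

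Nfe2l2, the oxidant-responsive factor (chromosome 2), read 8.59, 9.08 and 9.01 in the mutant by its best expressed probe set (1416543_at), against 8.52, 8.81 and 9.02 in wild type. The difference was 0.11 ± 0.15 and the genotypes overlapped. Its other probe set (1457117_at) differed by -0.05 ± 0.36, with -0.40, -0.08 and 0.32 in pairs 1 to 3. That probe set varied more between pairs than between genotypes, from 4.57 in wild-type replicate 3 to 7.48 in wild-type replicate 2.

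Keap1, the inhibitor and sensor (chromosome 9), differed by 0.05 ± 0.09 at its best expressed probe set (1450746_at), which read 8.21, 9.29 and 9.19 in the mutant and 8.21, 9.31 and 9.04 in wild type. The values of pair 1 were exactly equal. Its second probe set (1450747_at) read 4.68, 7.94 and 7.30 in the mutant, against 5.30, 7.83 and 7.96 in wild type. Here the mean was -0.39 ± 0.44, lower in pairs 1 and 3 and higher in pair 2, so the 2 Keap1 probe sets disagreed in sign.

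Bach1, the heme-regulated repressor (chromosome 16), was higher in the mutant in every pair at both of its probe sets. Probe set 1440831_at read 8.85, 9.31 and 8.81 in the mutant, against 8.80, 9.31 and 8.67 in wild type, a difference of 0.07 ± 0.07. Probe set 1449311_at read 7.44, 6.998 and 6.73 in the mutant, against 7.32, 6.58 and 6.53 in wild type, a difference of 0.24 ± 0.16. The genotypes overlapped in both, and neither passed in the paired fit. Over the whole array 12.1% of probe sets were higher in the mutant in all 3 pairs, and of the 17 member probe sets only these 2 were.

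The small Maf proteins lack a transactivation domain and act as the obligate partners of the factors above. Mafg (chromosome 11) read 7.34, 8.35 and 8.11 in the mutant at its best expressed probe set (1448916_at), against 7.52, 8.29 and 8.08 in wild type, a difference of -0.03 ± 0.13. Its second probe set (1434054_at) differed by 0.15 ± 0.28, with nearly all of it in pair 3 (0.48). Mafk (1418616_at, chromosome 5) read 7.17, 8.24 and 7.53 in the mutant, against 7.17, 8.31 and 7.68 in wild type, a difference of -0.07 ± 0.08 with exactly equal values in pair 1. The genotypes overlapped for all of these.

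**Figure D2:**
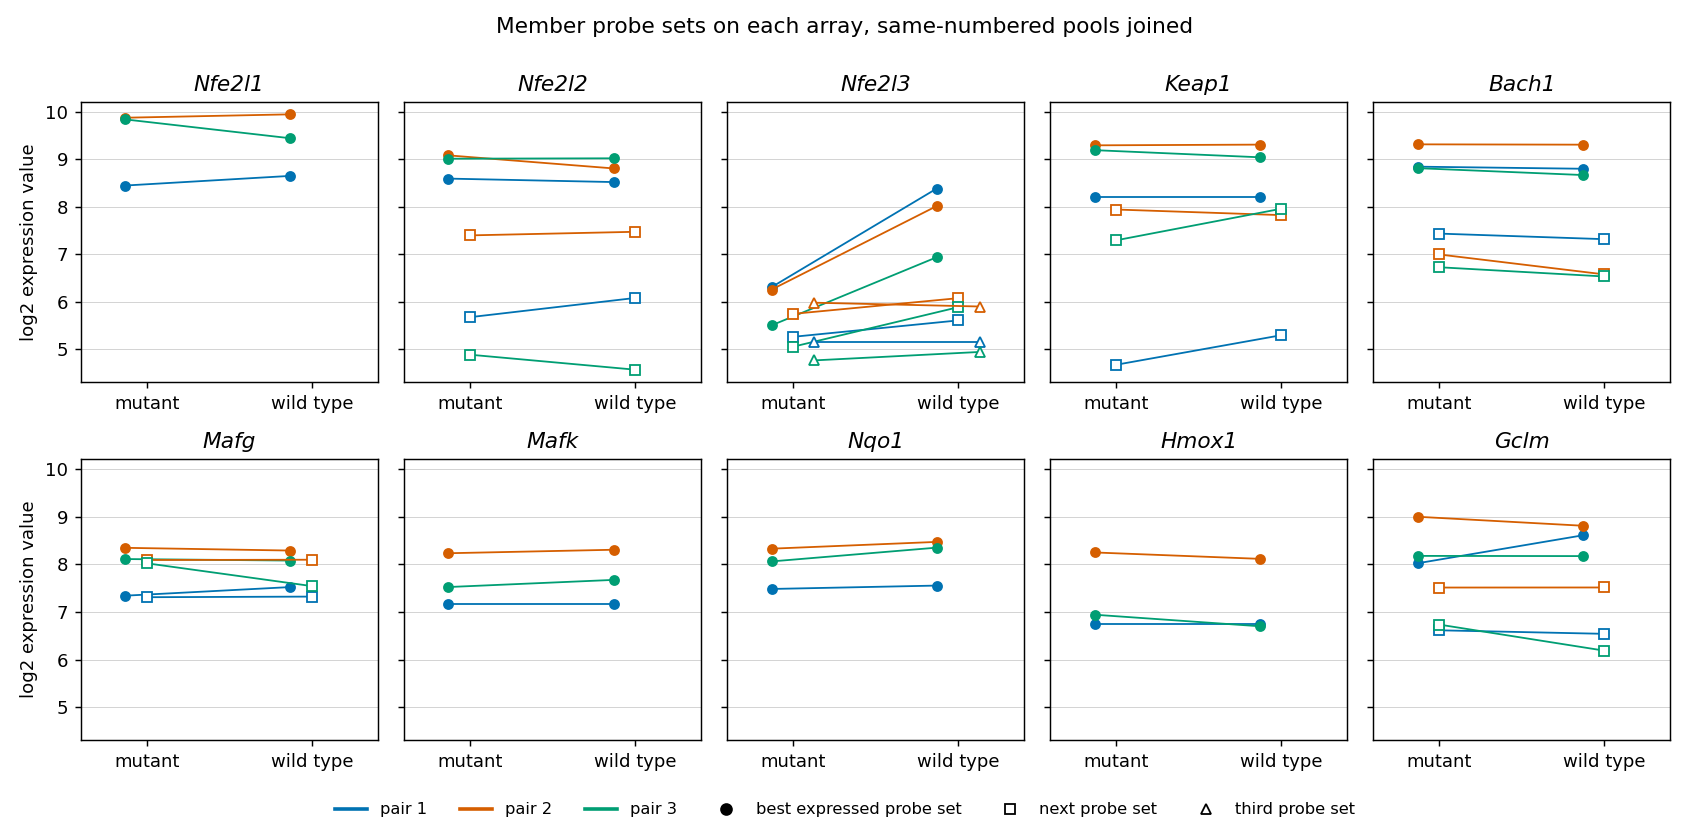
Log2 expression values of the 17 member probe sets are plotted by gene in mutant (left) and wild-type (right) pools, with a line joining each same-numbered pair, colour marking the pair and marker shape the probe set. The best expressed probe set of Nfe2l3 runs from 5.51 to 6.31 in the mutant and from 6.94 to 8.38 in wild type, and in the other genes the genotypes overlap.

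The 3 classic targets differed little between the genotypes. Nqo1, a quinone reductase gene (1423627_at, chromosome 8), read 7.48, 8.33 and 8.06 in the mutant, against 7.56, 8.47 and 8.35 in wild type. It was lower in the mutant in every pair, by -0.07, -0.14 and -0.29, with a mean of -0.17 ± 0.11. The genotypes overlapped. Over the whole array 8.41% of probe sets were lower in the mutant in all 3 pairs, and 3 of the 17 member probe sets were, Nqo1 and 2 of Nfe2l3.

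Hmox1, the inducible heme oxygenase gene (1448239_at, chromosome 8), read 6.75, 8.25 and 6.94 in the mutant, against 6.75, 8.12 and 6.70 in wild type. It was exactly equal in pair 1 and higher in the mutant by 0.13 and 0.24 in pairs 2 and 3, a mean of 0.13 ± 0.12. Macrophages are rich in heme oxygenase, and 8 of 10 macrophage markers had differences above 0, with a median of 0.12 and pair medians of -0.09, 0.36 and 0.25. None of the 10 passed in the paired limma fit (1 at an unadjusted p under 0.05). Their summed level ran from 12.11 to 13.22 in the mutant and from 12.15 to 12.86 in wild type. Their part in the Hmox1 values was not tested.

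Gclm encodes the modifier subunit of the enzyme that makes the glutathione precursor (chromosome 3). Its best expressed probe set (1418627_at) read 8.03, 9.004 and 8.18 in the mutant, against 8.61, 8.81 and 8.18 in wild type. The difference of -0.13 ± 0.41 came from pair 1 (-0.59), with 0.19 and 0.004 in pairs 2 and 3. The second probe set (1439050_at) had the opposite sign, 0.21 ± 0.30, and differed by 0.55 in pair 3.

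Over the group, 9 of the 17 mean differences were below 0 and 8 above, with a median of -0.03, beside -0.003 over all probe sets. The median over the members was -0.01, -0.001 and 0.03 in pairs 1 to 3. Leaving Nfe2l3 aside, the mean differences of the 14 probe sets of the other 9 genes ran from -0.39 for Keap1 to 0.24 for Bach1. The best expressed Nfe2l3 probe set was the only 1 of 17 whose genotypes did not overlap, against 1.07% of all probe sets. Overlap was read over all arrays without the pairing. Genotypes can therefore overlap where every pair differs in the same direction, as for Nqo1 and Bach1. In pair 1 the 2 arrays held exactly equal values for 4 of the 17 and for 34.2% of all probe sets, so small differences in that pair are not resolved.

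**Figure D3:**
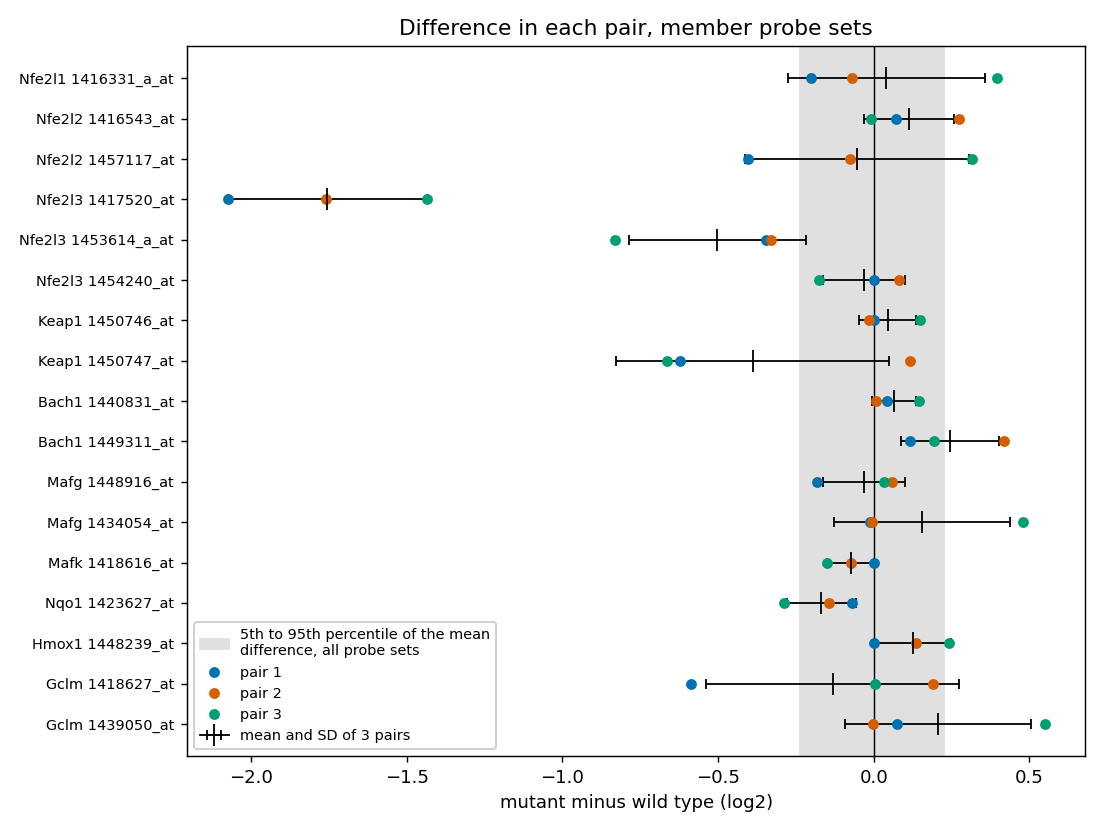
The mutant minus wild-type difference (log2) is plotted for each of the 17 member probe sets, with a coloured point per pair and a black bar for the mean and SD of the 3 pairs. The grey band spans the 5th to 95th percentile of the mean difference over all probe sets, -0.24 to 0.23, and 4 probe sets lie outside it: 1417520_at (-1.76) and 1453614_a_at (-0.50) of Nfe2l3, 1450747_at of Keap1 (-0.39) and 1449311_at of Bach1 (0.244).

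Genes around the members were read from 5 lists, with 1 probe set a gene, the best expressed, and the paired limma fit, in which 0.148% of 18193 genes passed and 7.35% had an unadjusted p under 0.05. No gene of these lists passed. Over all 18193 genes 48.7% had a difference below 0, which is the share to set beside the sign counts below. The first held other partners of the family and components of the ligases that degrade Nfe2l2. Of its 13 measured genes 11 were above 0, with a median of 0.07, beside 0.004 over all genes, and 1 had an unadjusted p under 0.05. Nfe2, the erythroid cap'n'collar factor, differed by 0.34 ± 0.39, and Bach2, the lymphoid relative of Bach1, by 0.30 ± 0.25 (limma adjusted p = 0.730 and 0.659). The large Maf factor Maf (0.11 ± 0.03), the ligase subunit Fbxw11 (0.11 ± 0.02) and the kinase Gsk3b (0.17 ± 0.19) were the best expressed of this list.

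Antioxidant and detoxification targets formed the second list, with 34 genes measured. Of these 15 were above 0 and 19 below, with a median of -0.01 and pair medians of -0.09, -0.01 and -0.02. None passed in limma, and 7 had an unadjusted p under 0.05, all of them lower in the mutant. These 7, named after their values were seen, were the glutathione S-transferase genes Gsta2, Gsta3, Gsta4 and Gstm2, the epoxide hydrolase gene Ephx1, the aldehyde dehydrogenase gene Aldh3a1 and the exporter gene Abcc4.

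Gsta2 had the largest difference of the list. It read 6.04, 6.49 and 6.13 in the mutant, against 6.65, 7.63 and 7.17 in wild type. The genotypes did not overlap, and the difference of -0.93 ± 0.28 missed the threshold (limma adjusted p = 0.159). Gsta2 has near-identical relatives, and another probe set of it carries several symbols, so the value is uncertain as to the gene.

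Ephx1 read 7.78, 9.22 and 9.005 in the mutant, against 8.76, 9.62 and 9.70 in wild type, lower in the mutant in every pair with overlap between the genotypes. Its difference was -0.69 ± 0.29 (limma adjusted p = 0.277). The other 5 of the 7 differed by -0.24 to -0.40. The best expressed genes of the list were near 0, with thioredoxin gene Txn1 at 0.03 ± 0.04, the transketolase gene Tkt at -0.05 ± 0.08 and Gstp1 at -0.05 ± 0.05. Gclc, the catalytic partner of Gclm, differed by 0.13 ± 0.27, and Txnrd1 by 0.05 ± 0.16; both were added after their values were seen.

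Genes of heme and iron handling, which Bach1 and Nfe2l2 are known to regulate in part, gave 4 of 14 above 0 and 10 below, with a median of -0.04 and none past the threshold in limma (1 at an unadjusted p under 0.05). Fth1, the ferritin heavy chain gene, differed by -0.26 ± 0.22, with -0.52 in pair 1, and the iron transporter gene Slc11a2 by -0.23 ± 0.18. Fech, the last enzyme of heme synthesis, differed by -0.16 ± 0.03 and Cp, the ceruloplasmin gene, by 0.10 ± 0.09. Erythroid markers were below 0 in 5 of 5 measured, with a median of -0.11 and summed levels of 7.93 to 9.13 in the mutant and 8.03 to 9.76 in wild type; their part in these values was not tested.

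Proteasome subunit genes, the best known targets of Nfe2l1, were 9 above 0 and 22 below of 31, with a median of -0.05 and a range from -0.23 to 0.18. None passed in limma, and 1 had an unadjusted p under 0.05. Psmb7 differed by -0.23 ± 0.18 and Psma4 by -0.23 ± 0.38, while Psma3 (0.02 ± 0.10) and Psma6 (0.11 ± 0.06) lay on the other side of 0. The pair medians of the list were -0.08, 0.05 and -0.11.

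Genes that release and process Nfe2l1 at the endoplasmic reticulum were 5 above 0 and 1 below, with a median of 0.08. None passed in limma, and 0 had an unadjusted p under 0.05. Vcp, the extracting ATPase, differed by 0.03 ± 0.16, the ligase gene Syvn1 by 0.21 ± 0.29, its partner Sel1l by 0.07 ± 0.07, Hcfc1 by 0.13 ± 0.39 and Ogt by 0.09 ± 0.18. Pair 3 gave the highest list median, 0.25, against -0.05 and 0.03 in pairs 1 and 2.

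**Figure D4:**
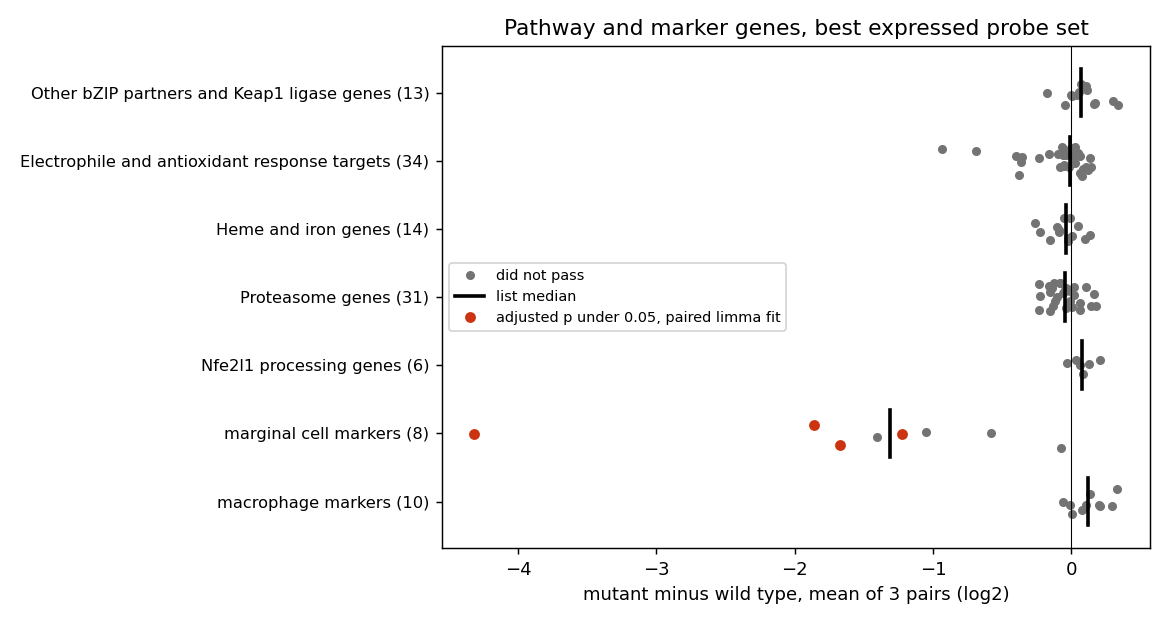
Each point is 1 gene's mean difference, mutant minus wild type (log2, best expressed probe set, mean of 3 pairs), in the 5 pathway lists and in marginal cell and macrophage markers, with the number of genes in brackets and the list median as a black line. The pathway medians lie between -0.05 and 0.08, and red points, which passed in the paired limma fit, occur among the marginal cell markers, whose median is -1.31.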

How the data were processed

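The authors deposited 1 value on the log2 scale for each probe set and array. Per the submitters' processing notes they used RMA; the sources used here do not give its version, its settings or a genome build. That the scale is log2 follows from the range, 2.33 to 14.6. Of 45101 probe sets 64 controls were left out. Symbols came from the platform annotation, and all 10 members matched a RefSeq gene table of GRCm38.p6.

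Members, lists and tests were chosen with earlier results of these data known. The replicate numbers in the labels were taken as pairs: deviations from the genotype means correlated across probe sets at 0.879, 0.818 and 0.746 in pairs 1 to 3, against a limit of 0.1 and at most 0.119 for arrays of other numbers. RMA run on each pair separately could also raise these values; whether it was is not given.

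Differences were fitted in R 4.3.3 with limma 3.58.1 (lmFit and eBayes, two-sided), with the replicate number as a block, on the whole table. The fit was tested on data simulated with normal noise around the pair means. That simulation has no exactly equal values within a pair, unlike 34.2% of probe sets in pair 1, so it does not cover them. A gene is represented by its probe set with the highest mean. Genes named from a list were those that passed, the 3 best expressed and the 2 with the largest difference. Of 107 listed pathway genes 98 had a probe set of a single symbol, and the other 9 are not analysed here. Promoter windows are RefSeq's. Alternatives were no block, other scalings, a level filter, other priors and weights, other thresholds, left-out pairs and left-out probe set classes.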

Additional observations from a re-analysis of the deposited data

How the results depend on the processing

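The Nfe2l3 difference at 1417520_at lay between -1.92 and -1.60 over the 12 alternatives to the paired fit. The filters, the prior, the thresholds and the block leave a mean difference as it is, so only the 2 scalings and the array weights, beside the left-out pairs, could move one. Under those 3 settings 0 of 51 member differences moved by more than the SD of their pairs and 2 changed sign, both near 0. Over all settings, the left-out pairs included, 9 of 199 changed sign. Gclm 1418627_at went from -0.13 to 0.10 without replicate 1, and Nfe2l1 from 0.04 to -0.14 without replicate 3. The median over the member probe sets went from -0.03 to 0.08 without replicate 1 and to 0.04 with the level filter. Whether the Nfe2l3 probe set passed did depend on the setting: 0 member probe sets passed with no replicate block, with quantile normalization across all arrays, at a threshold of 0.01, and without replicate 1, 2 or 3, against 1 in the paired fit. Over the whole array 42 probe sets passed in the paired fit, against 3 with no replicate block, 77 with array weights, 6 at a threshold of 0.01, 92 at a threshold of 0.1, and 0 to 7 with a pair left out. Another threshold changes the count by construction. For the other settings the cause was not tested. The left-out pairs all left the same number of arrays and gave 7, 0 and 0 without replicates 1, 2 and 3. In the 5 pathway lists 0 genes passed in any of 65 list and setting combinations. Part of this was fixed in advance. At a threshold of 0.01 it follows from the paired fit, and without replicate 2 or 3 the whole array had 0 calls. Signal over background is not given, which limits what can be read from the dim probe sets of Nfe2l3, Nfe2l2 and Keap1.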
